A study of Mus musculus with 5 samples.

Results

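The exons of genes annotated as long non-coding RNAs (lncRNAs) held 1898 of the 471848 positions of the METTL3 inhibition dataset and 1184 of the 195787 positions of the Mettl5 dataset. The members were every deposited position on an exon of a gene that GENCODE M21 types as lincRNA, antisense, processed_transcript, bidirectional_promoter_lncRNA or sense_overlapping, on the strand of the call. Positions that also lay on a protein-coding exon of that strand were left out (927 and 288 in the respective datasets), as were 323 positions in each dataset in an interval of chromosome 17 where Gm42418 overlaps a copy of ribosomal RNA sequence. The kept positions fell on 24 genes and 19 genes, with 16 genes and 1102 positions in common and 27 genes in all, of the 9823 genes of these types in the annotation. Of the 24 genes, 17 were typed processed_transcript, 6 lincRNA and 1 bidirectional_promoter_lncRNA.

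Polyadenylated RNA of mouse embryonic stem cells (mESCs) was read by nanopore direct RNA sequencing in 5 libraries. The METTL3 inhibition dataset had 1 library of cells given 30 µM STM2457, an inhibitor of the m6A methyltransferase METTL3, for 48 h and 1 library of cells given the solvent DMSO at 0.025% v/v. Both came from an E14 line that carries Dox::APOBEC1-YTH-HA-IRES-tdiRFP, which was not induced, the reporters Zscan4::mCherry-PEST and 2C::3xtbGFP-PEST, and METTL3-FKBP12F36V as a homozygous knock-in (non-induced). The Mettl5 dataset had 1 untreated wild-type (WT) library and 1 library from each of 2 Mettl5KO clones, made in an earlier study. The sample labels used here name no batch. The datasets come from different cell lines, so a batch and the cell line cannot be told apart between them. Comparisons were therefore made within a dataset. No position lay on Mettl5 in either dataset, so the knockout could not be checked here. The pluripotency markers were covered, with positions on 9 of 10 genes in the METTL3 inhibition dataset and on 7 of 10 in the Mettl5 dataset, against 1 of 11 (Vim) and 0 of 11 markers of other lineages.

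LncRNAs are transcripts without a long reading frame, and many are spliced and polyadenylated like mRNAs. METTL3, with METTL14 and WTAP, methylates adenosines of such transcripts in DRACH motifs (D is A, G or T, R is A or G, H is A, C or T) during transcription, often in long last exons. METTL5 is known as the methyltransferase of an adenosine in 18S rRNA. A frequent kind of lncRNA in growing cells is the small nucleolar RNA (snoRNA) host gene, whose introns hold the snoRNAs that guide the modification of rRNA while its spliced exons leave the nucleus as a short-lived transcript.

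The annotation class and the RefSeq annotation of the same genes differed. RefSeq called 15 of the 24 genes of the METTL3 inhibition dataset lncRNA, 6 protein-coding and 1 a transcribed pseudogene, and 2 (Gm26917 and AC121821.1) had no match. The 6 were Cct6a, a subunit of the CCT chaperonin, Tmem134, a transmembrane protein, Ifi30, a lysosomal thiol reductase, 1810058I24Rik, which has the synonym Stmp1 and encodes a small mitochondrial protein, 2310009A05Rik, which RefSeq lists as Pigbos1, a mitochondrial microprotein, and Ndufb1-ps, listed as Ndufb1, a subunit of respiratory complex I. They held 527 positions and 49.2% of the valid calls of the set in DMSO, and the RefSeq lncRNAs held 921 positions. The pseudogene, Gm6787, held 171 positions, of which 140 lay on exons of Psmb7-ps2, a pseudogene of the proteasome subunit Psmb7. Results are therefore given with the RefSeq class beside them.

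Positions on exons of other gene types numbered 240 in the METTL3 inhibition dataset. All 27 positions of Snhg12 lay on Snora44, all 23 of Snhg20 on a scaRNA (Gm26083), all 12 of AC121821.1 on Mir1949, and 38 of the 58 of Dancr on Snora26. On Dancr the median coverage was 195 reads at the Snora26 positions and 142 reads at the others in DMSO. For these genes the calls of the small RNA and of the lncRNA exon cannot be told apart. Gm26917, the gene with the most positions (267), ended 11 bases before the left-out interval on chromosome 17. Of the 76 positions of Snhg3, all lay inside the span of a protein-coding gene on the same strand.

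The level is the percentage of valid modification calls that were m6A, from counts that the authors deposited per position. The set had 395354 valid calls in DMSO and 295686 in STM2457, a median of 92 and 83 reads per position, and 117251, 106995 and 119008 in WT, clone 1 and clone 2, a median of 102, 79.5 and 90 reads. The lowest coverage in the deposited files was 25 reads. Values in brackets after a level are its 95% interval (exact binomial, Clopper-Pearson), which covers counting error only. With 1 library per condition, Fisher's exact test (two-sided, Benjamini-Hochberg adjusted over every exonic site, or every gene, of all types) compares libraries, not conditions.

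A position counted as an m6A site where its coverage exceeded 25 reads in each library of its dataset and its level reached 25% in any of them. This held for 14 of the 1865 lncRNA positions above 25 reads, or 0.751%, against 1.38% of all exonic positions. The 14 sites lay on 8 of the 24 genes, and 8 of them were on the genes that RefSeq calls protein-coding. Below are the sequences of the strongest site with 50 or more reads in both libraries of each of 5 genes (the first 5 lines, the last of which has no DRACH motif), and of 3 further sites chosen after their values were seen, because they show a second strong site of one transcript and the other sites outside DRACH motifs. Each runs 5′ to 3′ from the GENCODE M21 transcript (mm10), with the DRACH motif in capitals or, where there is none, the called A alone.
1810058I24Rik, chr6:35261474-35261494 (+): ccatgacaGGACTcactcgcc
Cct6a, chr5:129845918-129845938 (+): aagaaacgGGACAtttgacac
Tmem134, chr19:4131670-4131690 (+): tgggttctGGACTcctgggtt
1110038B12Rik, chr17:34950309-34950329 (-): tgaaataaGAACTtatcttgc
2410006H16Rik, chr11:62604727-62604747 (+): ctgggtgggcAcatttggtaa
1810058I24Rik, chr6:35261547-35261567 (+): gctgctggGGACTcactgtct
1810058I24Rik, chr6:35261528-35261548 (+): aaatgaatggAtttggatagc
Snhg5, chr9:88521245-88521265 (-): tgtgggctgtAtgtaaatgga

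Of the 14 sites, 11 were in a DRACH motif, and 9 of these 11 had the letters ACT at the called A. The set held 131 DRACH positions, 40 of them with ACT, so most DRACH positions were not sites. The pooled level was highest at GGACA, with 44.6% over 4 positions, and at GGACT, with 44.2% over 9 positions, and it was 0.517% over the 13 TGACA positions in DMSO. At 61 of the 131 DRACH positions the level was 0 in DMSO. All 14 sites lay in the last exon of the transcript they were placed on, as did 85.8% of the 1898 positions, and they were 35 to 716 bases from its 3′ end, with a median of 108 bases.

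STM2457 was compared with DMSO to find which lncRNA m6A depends on METTL3 activity. Pooled over the 14 sites, the level was 65.1% in DMSO (63.4% to 66.9%) and 15.5% in STM2457 (14.14% to 16.95%). It fell significantly at 12 of the 14 sites and rose significantly at 1, where 91.6% of all exonic sites were called lower and 0.323% higher. A level of 25% or more was found at 13 of the sites in DMSO and at 4 in STM2457, so the choice of sites by their level in either library favours a high DMSO value. The levels just inside the threshold were 27.4%, 30% and 35.8%, and those just outside it 19.8% (Cct6a), 19.4% (2310009A05Rik) and 18.4% (Dancr). At the 11 DRACH sites the mean relative decrease (the difference from DMSO as a percentage of the DMSO value) was 82.5% with an SD over sites of 9.65, and all 11 were called lower. The same mean over all 5493 DRACH sites on exons was 77.4%, and 5354 of them were called lower.

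The highest level of the set was on 1810058I24Rik at position 35261484 of chromosome 6, in exon 4 of 4 of 1810058I24Rik-201. There 360 of 380 valid calls were m6A in DMSO, or 94.7%, and 102 of 362, or 28.2%, in STM2457 (adjusted p = 3.23e-85 by Fisher's exact test). A second site in the same exon, at 35261557, with the same GGACT motif, had 88.4% of 387 calls and 26.9% of 368 calls. The third, at 35261602 in AAACT, had 40% of 400 calls and 4.07% of 393 calls. These 3 sites fell together, and the 2 strongest kept more than 25% in STM2457.

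The transcript also showed what happened at weaker positions. At 35261538, an A followed by T and outside any DRACH motif, the level fell from 27.4% of 372 calls to 1.64% of 366 calls (adjusted p = 2.56e-25 by Fisher's exact test), a relative decrease of 94.0%. At 35261466, just before the strongest site and also outside a DRACH motif, the level was 17.4% of 270 calls in DMSO and 15.7% of 261 calls in STM2457, values with overlapping intervals (13.1% to 22.5% and 11.5% to 20.7%) and with 134 and 125 failed calls. A further position, 35261206, stood at 15.3% and 13.8%. Positions of one transcript thus differed in how their level moved, and the levels at 35261466 and 35261206 did not differ detectably between the libraries at this depth.

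**Figure D1:**
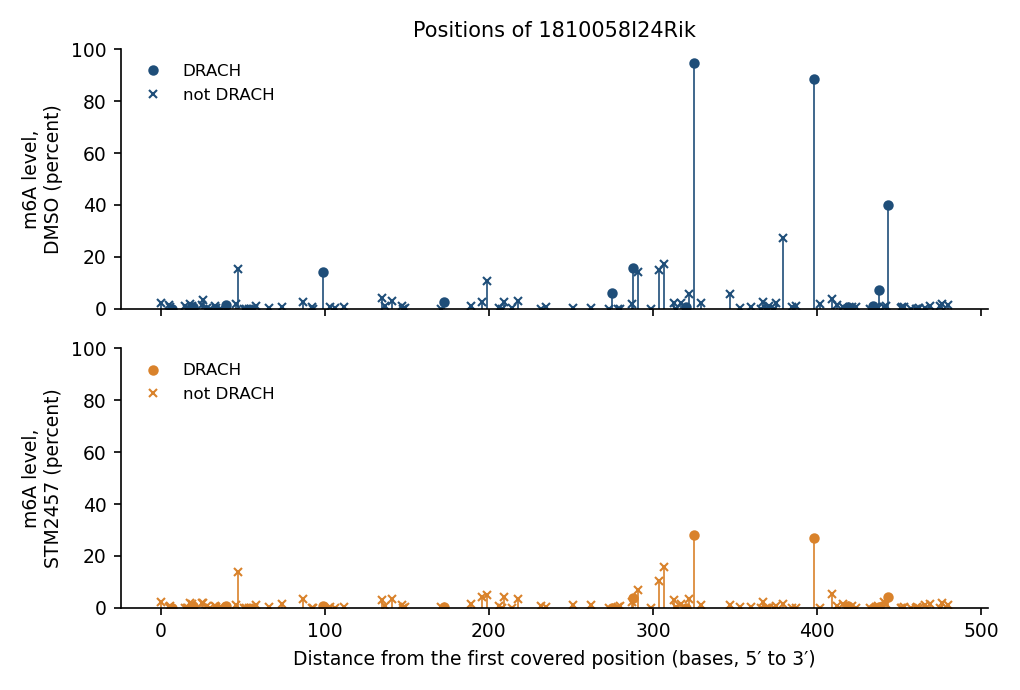
m6A level in percent of valid calls at the 115 positions of 1810058I24Rik, by distance in bases from its first covered position, in DMSO (upper panel) and STM2457 (lower panel). Circles mark DRACH positions and crosses the others. The peaks of 94.7% and 88.4% in DMSO stand at 28.2% and 26.9% in STM2457, while the cross at 17.4% stands at 15.7%.

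On Cct6a the site at position 129845928 of chromosome 5, in exon 13 of 13 of Cct6a-202, had 607 m6A calls among 729 in DMSO, or 83.3%, and 69 among 418 in STM2457, or 16.5%. It was the most deeply covered site, with an adjusted p of 3.94e-112 by Fisher's exact test. A position before it in the same exon, 129845843, outside a DRACH motif, fell from 19.8% of 728 calls to 2.66% of 413 calls and was just under the 25% limit. Tmem134 had a site with 80.2% of 91 calls and 23.9% of 71 calls at position 4131680 of chromosome 19, and another with 56.8% of 95 calls and 9.09% of 77 calls at 4131569. Both were placed on Tmem134-202, a retained-intron transcript of the gene. On 2310009A05Rik the level fell from 61.3% of 31 calls to 14.3% of 28 calls at position 73042677 of chromosome 9. All 8 sites on genes that RefSeq calls protein-coding were called lower.

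On the RefSeq lncRNAs, 4 of 6 sites were called lower. On 1110038B12Rik, the site at 34950319 of chromosome 17, in exon 5 of 5, had 85 m6A calls among 206 in DMSO, or 41.3%, and 5 among 217, or 2.30%, in STM2457 (adjusted p = 3.95e-24 by Fisher's exact test). The lncRNA 2410003L11Rik carried a pair of sites, at 97622770 and 97622806, in its last exon on chromosome 11. They had 60.0% of 60 calls and 64.5% of 62 calls in DMSO, and 4.88% of 41 calls and 8.11% of 37 calls in STM2457. Snhg5, a snoRNA host gene, had 30% of 40 calls against 2.08% of 48 calls at the AGACT at 88521166 of chromosome 9. At these 4 sites the intervals of the libraries did not overlap.

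The other 2 sites of the RefSeq lncRNAs, both outside DRACH motifs, did not fall significantly. At position 88521255 of Snhg5 the level was 76.7% of 30 calls in DMSO (57.7% to 90.1%) and 54.5% of 33 calls in STM2457 (36.4% to 71.9%), an adjusted p of 0.119 by Fisher's exact test. At position 62604737 of 2410006H16Rik it was 22.2% of 81 calls in DMSO and 35.8% of 159 calls in STM2457, which was called higher with an adjusted p of 0.0426 by Fisher's exact test. The adjusted p was 0.0687 when it was adjusted over all positions of 10% or more. In this dataset the position passed the 25% threshold only through STM2457, so the test used the value that chose it. At this position 75 further calls failed the confidence filter in DMSO and 125 in STM2457, so nearly as many calls failed as passed. With failed calls in the denominator its level was below 25% in both libraries. It was then no longer a site, and 13 sites remained. Whether the difference between the libraries depends on the failed calls was not tested. In the Mettl5 dataset the same position stood at 34.7% of 75 calls in WT, 25.9% of 54 calls in clone 1 and 36.0% of 25 calls in clone 2.

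**Figure D2:**
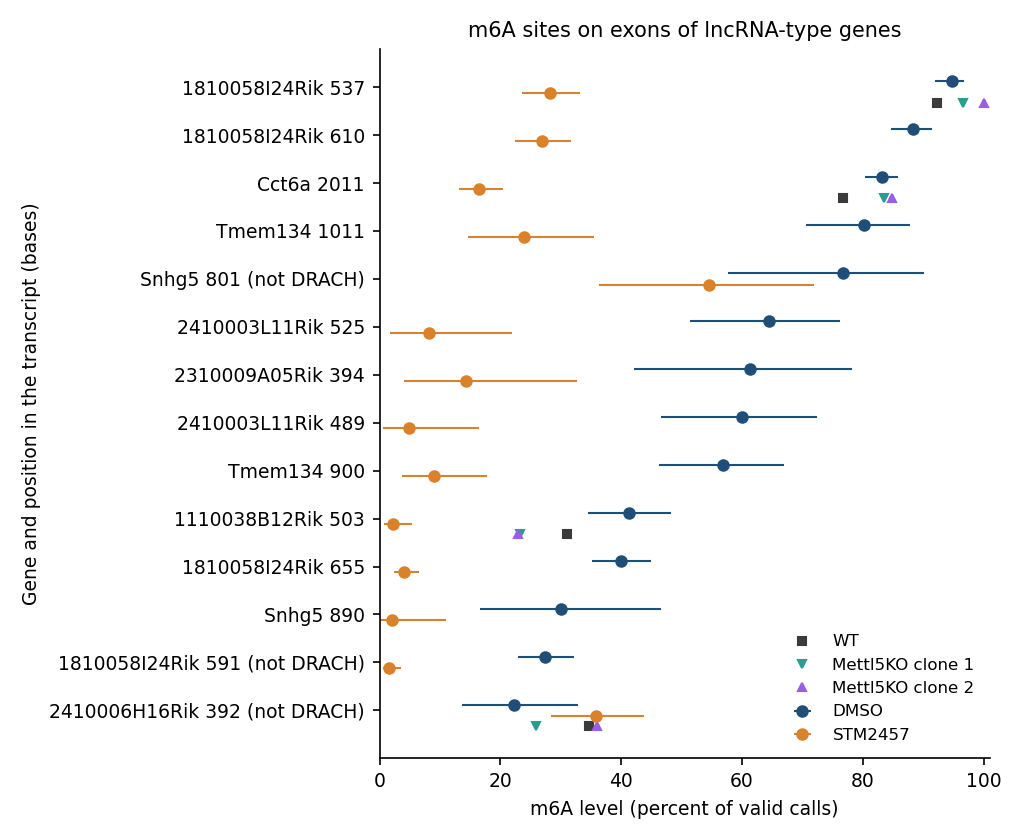
m6A level in percent of valid calls at the 14 m6A sites of the METTL3 inhibition dataset, named by gene and position in the transcript. Circles with exact binomial 95% intervals are DMSO and STM2457, and squares and triangles without intervals are WT and the Mettl5KO clones at the 4 sites that dataset also covers. The intervals of DMSO and STM2457 overlap at the Snhg5 and 2410006H16Rik positions outside DRACH motifs and are apart at the other 12 sites.

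Weaker positions were read with a lower threshold. Of the lncRNA positions above 25 reads, 51 had a level of 10% or more in either library, the 14 sites included. The level fell significantly at 19 of the 51, against 53.4% of all such exonic positions, and rose significantly at 0 by Fisher's exact test, against 0.651%. Of the 37 that were not sites, from 10% to below 25%, 7 were called lower, against 27.9% of all exonic positions in that range, and 0 higher, against 0.943%. These were 5 of the 7 DRACH positions and 2 of the 30 others, where all exons had 59.7% of DRACH positions and 7.57% of the others called lower. The median of the 7 was 14.9% in DMSO and 1.89% in STM2457, and that of the 30 was 11.1% and 8.57%. The 2 called outside a DRACH motif were 35261358 of 1810058I24Rik and 129845843 of Cct6a.

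Pooled over all 131 DRACH positions, the level was 7.76% in DMSO (7.45% to 8.08%) and 1.79% in STM2457 (1.62% to 1.98%). Over the 1767 other positions it was 0.954% (0.923% to 0.986%) and 0.849% (0.814% to 0.884%). Protein-coding exons had 7.91% and 2.04% at DRACH positions and 0.939% and 0.809% at the others. Of the lncRNA DRACH positions above 25 reads, 8.40% were sites, against 14.4% on protein-coding exons, a difference that was not tested because positions of one transcript are not independent. The split by RefSeq class was wider than that between the annotation classes. DRACH positions of the RefSeq lncRNAs pooled to 3.89% in DMSO and 0.409% in STM2457. Those of the RefSeq protein-coding genes pooled to 14.2% and 3.47%. These pools weigh each gene by its calls, and the genes of a class differed. In DMSO the protein-coding genes with DRACH positions ran from 0.0949% (Ndufb1-ps) to 47.6% (Tmem134). The lncRNAs ran from 0% (Zfas1) to 28.0% (2410003L11Rik).

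**Figure D3:**
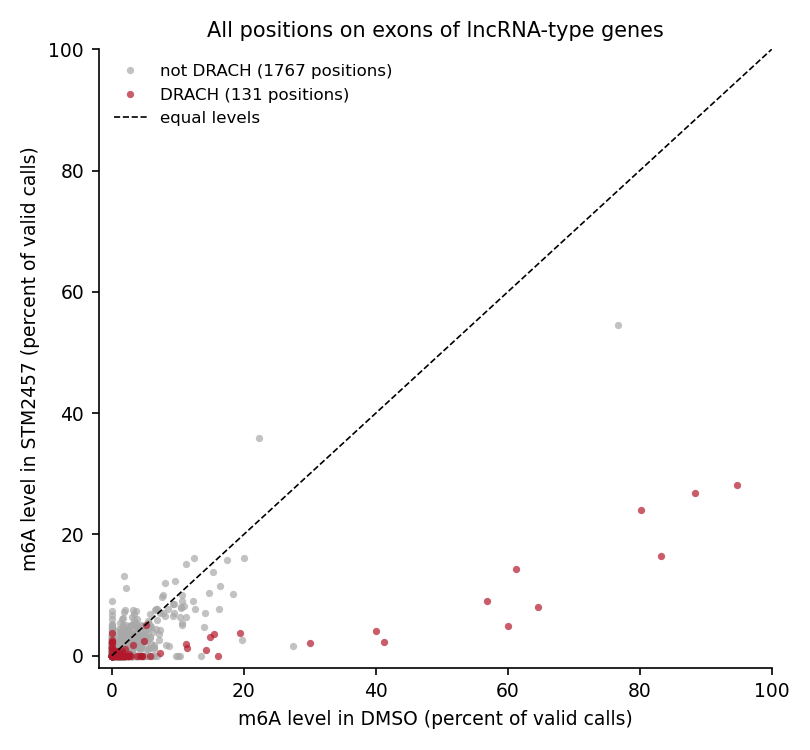
m6A level in DMSO (horizontal axis) and STM2457 (vertical axis), in percent of valid calls, at each of the 1898 lncRNA positions. Red points are the 131 DRACH positions, grey points the 1767 others, and the dashed line marks equal levels. DRACH points above 10% in DMSO lie far below the line, and the grey points at 76.7% and 22.2% in DMSO are the Snhg5 and 2410006H16Rik positions.

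Calls were then summed over all positions of a gene, and 23 lncRNA-type genes with 20 or more positions were tested. The level was lower in STM2457 at 19 of the 23, and significantly so at 9, against 71.5% of the 2585 tested genes of all types. It was significantly higher at 0 of the 23 by Fisher's exact test, against 0.155% of all genes, with 1 gene higher at an unadjusted p below 0.05. The median log2 ratio of the level, STM2457 over DMSO, was -0.35 over the 23 genes and -0.85 over all tested genes. The 23 genes held from 0 (Ifi30) to 20 (Gm26917) DRACH positions. In DMSO they had from 1686 (2310009A05Rik) to 129381 (Cct6a) valid calls, and the shares called were not adjusted for either. Of the 8 genes with an m6A site, 6 were called lower, and of the 15 without one, 3 were.

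The 6 were the 4 RefSeq protein-coding genes with sites, 1810058I24Rik, Cct6a, Tmem134 and 2310009A05Rik, and the lncRNAs 1110038B12Rik and 2410003L11Rik. The level of 1810058I24Rik was 3.98% of 41116 calls in DMSO and 1.64% of 39281 calls in STM2457, the highest of the set (adjusted p = 1.88e-89 by Fisher's exact test). Tmem134 had 3.05% and 1.19%. On 2410003L11Rik, with 3.03% and 0.504%, the relative decrease of 83.4% was the largest of the 23 genes. Cct6a had 1.30% and 0.743%, 1110038B12Rik 1.67% and 0.792%, and 2310009A05Rik 2.08% and 0.688%. Snhg5 and 2410006H16Rik carried sites and did not pass the test, with 1.42% and 1.13%, and 1.48% and 1.63%.

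The 3 genes called lower without a site were all RefSeq lncRNAs. E330020D12Rik had 39 m6A calls among 3104 in DMSO, or 1.26%, and 11 among 2212, or 0.497%, in STM2457 (adjusted p = 0.0086 by Fisher's exact test). Its highest DMSO positions were at 16.2% and 14.9%, under the threshold. 2010204K13Rik had 0.984% and 0.617% (adjusted p = 0.0187 by Fisher's exact test), and its 4 DRACH positions pooled to 4.66% and 0.341%. Snhg6, a snoRNA host gene, had 1.09% and 0.651% (adjusted p = 0.0353 by Fisher's exact test). The last 2 genes lost their call at an adjusted p of 0.01 and with calls thinned to equal coverage.

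Among the genes with the most positions, Gm26917 and Gm6787 did not pass the test. Gm26917 had 0.993% of 30197 calls in DMSO and 1.05% of 23095 calls in STM2457, with intervals of 0.885% to 1.11% and 0.921% to 1.19%. Its 20 DRACH positions pooled to 0.523% and 0.402%, the lowest among the genes with 10 or more DRACH positions in DMSO. Gm6787 had 0.826% and 0.754%, and its 10 DRACH positions 0.555% and 0.316%. Ndufb1-ps had the lowest level of the set in DMSO, 0.389% of 13635 calls, and 0.442% of 14263 calls in STM2457.

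**Figure D4:**
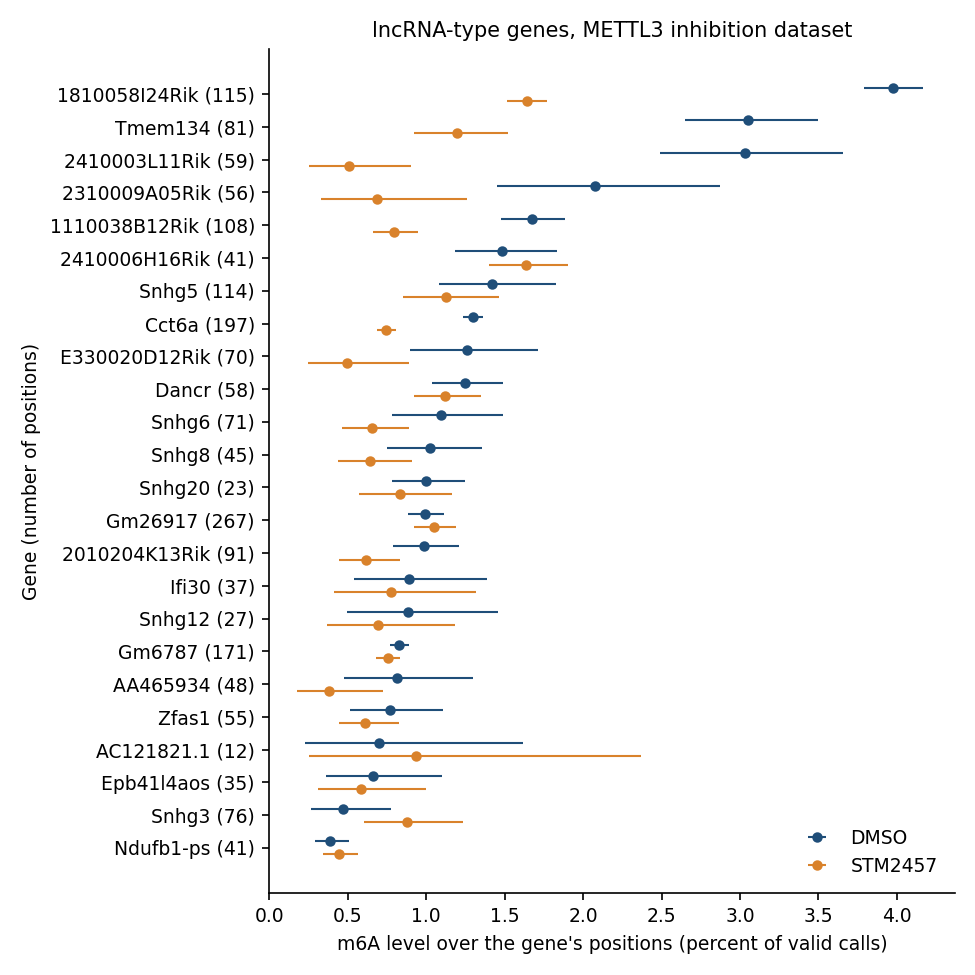
m6A level in percent of valid calls summed over all positions of each of the 24 lncRNA-type genes in DMSO and STM2457, with exact binomial 95% intervals and the number of positions in brackets. 1810058I24Rik, at 3.98% in DMSO, Tmem134 and 2410003L11Rik stand apart at the top and lie lower in STM2457. The 9 listed snoRNA host genes have a median of 0.996% in DMSO and 0.692% in STM2457.

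The snoRNA host genes were the one list of known lncRNAs with members in the METTL3 inhibition dataset. Of 22 listed genes, 18 had one of the lncRNA types, 9 had positions, and all 9 were tested. Genes of the set outside this list may also host snoRNAs, so the values hold for the listed genes only. Only Snhg6 among the 9 was called lower, and 0 were called higher, against 71.5% and 0.155% of all tested genes. The values of Snhg12 and Snhg20 rest wholly, and those of Dancr in part, on exons of small RNAs. Their levels ran from 0.470% (Snhg3) to 1.42% (Snhg5) in DMSO, with a median of 0.996%, and from 0.586% to 1.13% in STM2457, with a median of 0.692%, against medians of 1.51% and 0.869% over all tested genes. Snhg3 was the gene higher at an unadjusted p below 0.05, with 0.470% of 3192 calls in DMSO and 0.879% of 3754 calls in STM2457 (adjusted p = 0.0584 by Fisher's exact test). Snhg8 had 1.02% and 0.640%, Zfas1 0.768% and 0.612%, Dancr 1.25% and 1.12%, Snhg12 0.885% and 0.692%, Snhg20 0.996% and 0.830%, and Epb41l4aos 0.659% and 0.586%. The 12 nuclear and chromatin lncRNAs of the lists, Malat1, Neat1 and Firre among them, the 13 microRNA host genes, the 9 imprinted lncRNAs and the 11 other studied lncRNAs had 0 positions in both datasets, and of 23 embryonic stem cell lncRNAs only Platr10 had positions, in the Mettl5 dataset.

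The number of valid calls on a gene also follows how much of its RNA was read. Relative to all exonic calls, 18 of the 23 tested lncRNA-type genes had a larger share in STM2457 than in DMSO, or 78.3%, against 59.7% of all tested genes, and the median log2 ratio of the shares was 0.40 against 0.11. A ratio of 1 or more on the log2 scale was found for Zfas1 (1.35), 2410006H16Rik (1.25) and Snhg6 (1.12), 3 of 23 genes, against 3.60% of all tested genes. The median coverage of Zfas1 was 68 reads in DMSO and 131 in STM2457, that of 2410006H16Rik 141 and 254, and that of Snhg6 51 and 83. Over the 9 listed snoRNA host genes the median log2 ratio was 0.55, with 8 above 0. Snhg20, whose positions lie on a scaRNA, was at -0.50. Cct6a was at -0.40 and Gm6787 at -0.38. There is no replicate of either library and no test of these ratios, which hold only positions with 25 or more reads in both libraries, and in such bulk samples more RNA per cell and more cells with the RNA cannot be told apart.

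The Mettl5KO clones were compared with WT to see whether m6A on lncRNAs changed without METTL5. Both clones were set against the same WT library, so their differences from WT are not independent. No gene and no site of the set was called in both clones in the same direction by Fisher's exact test at an adjusted p below 0.05. At that threshold 0.1% of the 997 tested genes of all types were lower in both and 0% were higher. Of all 1876 exonic sites, 0.0533% were lower and 0% higher. The set also had 0 genes and 0 sites in both clones at an unadjusted p below 0.05, where the share over all types was not counted. Pooled over the 1184 positions, the level was 1.47% in WT (1.404% to 1.543%), 1.42% in clone 1 (1.35% to 1.49%) and 1.38% in clone 2 (1.32% to 1.45%). At the 92 DRACH positions it was 3.99%, 3.84% and 3.99%, values that differed by less than their intervals.

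Of the 1121 lncRNA positions above 25 reads, 6 were m6A sites in this dataset, or 0.535%, against 1.03% of all exonic positions. Of the 6, 3 were also sites in the METTL3 inhibition dataset. On 1810058I24Rik the level at 35261484 was 92.3% of 52 calls in WT, 96.6% of 29 calls in clone 1 and 100% of 27 calls in clone 2. On Cct6a the level at 129845928 was 76.7% of 215 calls in WT (70.5% to 82.2%), 83.5% of 176 calls in clone 1 (77.2% to 88.7%) and 84.8% of 211 calls in clone 2 (79.3% to 89.4%). Both levels were higher in both clones than in WT and did not pass the test, where Fisher's exact test gave adjusted p-values between 0.616 and 1. The site of 1110038B12Rik at 34950319 had 31.0% of 71 calls, 23.3% of 60 calls and 22.9% of 35 calls, with overlapping intervals. These 3 sites fell in STM2457 by 70.3%, 80.2% and 94.4% of their DMSO level.

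At 2 sites, the level in 1 clone was far above that of the other libraries. By Fisher's exact test, 1 of the 6 sites was called in clone 2 and 0 in clone 1, against 0.213% and 0.0533% of all sites. At an unadjusted p below 0.05 there were 2 in clone 2 and 1 in clone 1, against 7.62% and 6.5%. On 2900060B14Rik, a RefSeq lncRNA, the level at 118459139 of chromosome 1 was 3.37% of 89 calls in WT, 5.97% of 201 calls in clone 1 and 32.5% of 80 calls in clone 2, which was higher than WT with an adjusted p of 0.000268 and differed from clone 1 with an adjusted p of 6.84e-05 by Fisher's exact test. The failed calls there outnumbered the valid ones in both clones, with 212 and 141. On 1810058I24Rik the level at 35261258 was 4.26% of 47 calls in WT, 37.0% of 27 calls in clone 1 and 5.71% of 35 calls in clone 2. By Fisher's exact test, clone 1 did not differ significantly there from WT (adjusted p = 0.139) or from clone 2 (adjusted p = 0.786). That position stood at 14.2% of 365 calls in DMSO and 0.882% of 340 calls in STM2457. The windows of both sites are shown because their levels were unequal between the clones, a difference that passed the test only on 2900060B14Rik.
2900060B14Rik, chr1:118459129-118459149 (-): tttggaaaAAACCacaaaacc
1810058I24Rik, chr6:35261248-35261268 (+): tgcaatctGGACCcaccagtt

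The sixth site, on Gm6787 at 8105911 of chromosome X, had 25.5% of 98 calls, 14.5% of 69 calls and 25.6% of 121 calls. The transcript base is T there, although modification calls are made on an A in the read, and it was 1 of 16 positions of the set in this dataset without an A in the transcript. This gene lies over a processed pseudogene, so reads of near-identical copies may be placed on it, and its values are uncertain.

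By gene, 16 of the 19 lncRNA-type genes were tested. In clone 1 the level was lower than in WT for 9 of the 16 and in clone 2 for 10. At an unadjusted p below 0.05, 0 genes differed in clone 1 and 3 in clone 2 by Fisher's exact test, against 8.12% and 12.1% of all tested genes. These 3 were Dancr, with 1.67% in WT, 1.53% in clone 1 and 0.846% in clone 2, Cct6a, with 1.71%, 1.67% and 1.52%, and 2900060B14Rik, with 1.16%, 1.54% and 1.63%. 1810058I24Rik again had the highest level, with 3.63% of 2647 calls, 3.77% of 1563 calls and 3.02% of 1754 calls, and its intervals overlapped in all 3 libraries. Gm26917 had 1.23%, 1.25% and 1.34%.

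A change of 25% or more of the WT level in the same direction in both clones was found for 3 of the 16 tested genes. The share of all tested genes with such a change was not counted, so the number is not read as a result about the set. 2900060B14Rik was higher by 32.6% and 40.4% of its WT level, and 2010204K13Rik, with 0.711% of 1548 calls in WT, 1.19% of 1592 calls and 1.27% of 1891 calls in the clones, by 68.0% and 78.6%. Snhg1, a snoRNA host gene, had 1.35% of 1778 calls in WT, 0.696% of 1436 calls in clone 1 and 1.01% of 1386 calls in clone 2. The smallest adjusted p of these 6 comparisons was 0.317 in Fisher's exact test on the summed calls. For 2900060B14Rik in clone 2 the call depended on the test, with an adjusted p of 0.01056 in a Cochran-Mantel-Haenszel test stratified by position and of 0.001166 by Fisher's exact test on calls thinned to equal coverage, and clone 1 passed neither (0.4467 and 0.7548). Among the 6 listed snoRNA host genes that were tested, 0 were called in either clone by Fisher's exact test. Of all tested genes, 0.201% were called in clone 1 and 1.1% in clone 2. The median levels of the 6 were 1.12% in WT, 1.11% in clone 1 and 0.852% in clone 2. Epb41l4aos and Platr10, with 18 positions each, were not tested. Epb41l4aos, a snoRNA host gene, had 7 m6A calls among 458 in WT (1.53%), 2 among 630 in clone 1 (0.317%) and 4 among 758 in clone 2 (0.528%), with overlapping intervals. Platr10, a lncRNA of pluripotent cells, had 0 m6A calls among 450 in WT, with an interval up to 0.816%, 2 among 554 in clone 1 and 5 among 535 in clone 2.

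The largest differences in coverage were on 3 genes, named after their values were seen. On 2900060B14Rik, where 26 of 28 positions lie on the snRNA gene Gm22710, WT had a median coverage of 181 reads, clone 1 of 474.5 and clone 2 of 543, and its share of all exonic calls was higher than in WT by 1.51 and 1.44 on the log2 scale. At most 1.30% of all tested genes reached a ratio of 1 in a clone. 2410006H16Rik had 98, 81 and 30 reads, and a log2 ratio of -0.17 and -1.74. Ndufb1-ps had 50, 67 and 103 reads, with 0.58 and 1.09. The 2 clones thus shared the direction at 2900060B14Rik, and the share of 2410006H16Rik fell by over 1 on the log2 scale only in clone 2.

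**Figure D5:**
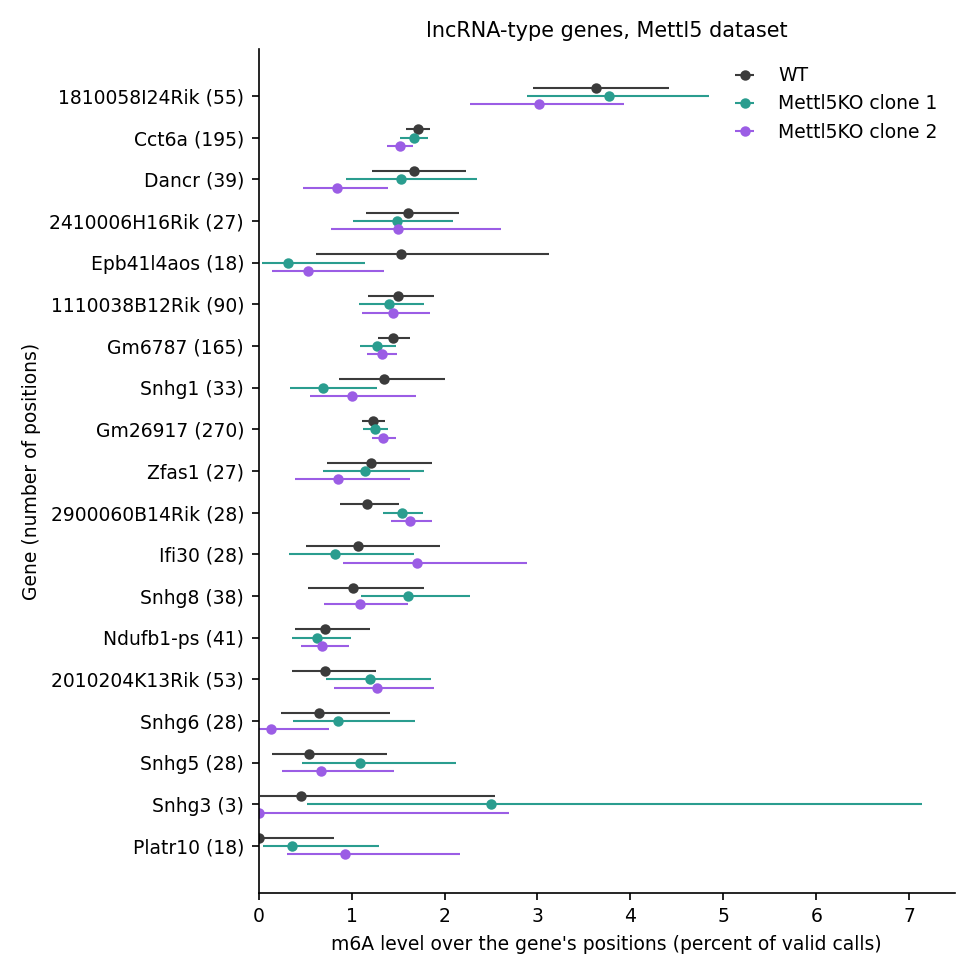
m6A level in percent of valid calls summed over all positions of each of the 19 lncRNA-type genes in WT and both Mettl5KO clones, with exact binomial 95% intervals and the number of positions in brackets. 1810058I24Rik is highest, at 3.63% in WT, and at each of the 19 genes the intervals of both clones overlap that of WT.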

How the data were processed

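Nanopore direct RNA reads were base called with modification models and piled up per position on mm10 by the authors. The authors deposited, per position and strand, counts of valid calls, of m6A calls, of other modification classes and of failed calls, and the percent modified. The percent column was not used, since it is the ratio of those counts. The level is m6A calls over valid calls. Positions were placed on GENCODE M21 exons, and RefSeq biotypes were matched by symbol or synonym on the same chromosome. Motifs and sequence windows were read from GENCODE M21 transcripts.

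Levels were compared with two-sided Fisher's exact tests, adjusted by Benjamini-Hochberg over all exonic sites or all genes with 20 or more positions, at an adjusted p of 0.05. There is 1 library per condition and there are 2 clones that share 1 WT library, so p-values cover the counting of calls and not the spread between cultures. Depth per library is given with the results, and calls on one read are not independent. The scripts were tested on simulated data and used Python 3.11.15, numpy 2.4.6, pandas 2.3.3, scipy 1.17.1 and matplotlib 3.10.9.

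The genes named were those with the most positions (12 and 8 per dataset), those with the most sites, list members with 20 or more positions, genes or sites with a change of 25% or more of the WT level in the same direction in both clones, sites at 25% or more in DMSO with a relative decrease under 25% (0 were found), and up to 5 genes rich in other modification classes. A gene or position outside this rule was named after its values were seen. The members, lists and tests were chosen with earlier results of these data known. The alternatives varied the coverage, the level threshold, the motif, the failed calls, the overlap with other genes, the positions per gene, the gene test, the adjusted p, the depth and the clones.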

Additional observations from a re-analysis of the deposited data

Results flagged for a closer look

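Beside m6A, the deposited counts hold calls of other modification classes on adenosine, which these counts do not separate into inosine and 2'-O-methyladenosine. They made up 0.44% of the valid calls of the lncRNA exons in DMSO and 0.439% in STM2457, and stood above 20% at 6 of the positions above 25 reads in every library of their dataset, each above the level that 3 calls would give there. None of these values was part of a comparison in the report, and no test was made of them.

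On Cct6a, the position 129845970 of chromosome 5 had 23.5% of 358 calls in DMSO, 28.5% of 207 calls in STM2457 and in the Mettl5 dataset 23.2% in clone 2, 34.7% in clone 1 and 31.25% of 112 calls in WT, with 380 failed calls in DMSO and 219 in STM2457. On Dancr, 74093250 of chromosome 5 had 27.5% of 40 calls in DMSO and 32.3% of 31 calls in STM2457. Snhg8 had 27.4% of 62 calls in DMSO and 13.6% of 66 calls in STM2457 at 123508323 of chromosome 3. Zfas1 had 2.44% of 41 calls in DMSO and 20.6% of 68 calls in STM2457 at 167065820 of chromosome 2. On 1110038B12Rik the level of these classes was 22.9% of 48 calls in WT, 15% of 40 calls in clone 1 and 4.88% of 41 calls in clone 2 at 34950436 of chromosome 17. On Gm6787 it was 21.1% of 71 calls in clone 1 at 8105934 of chromosome X, against 13% of 100 calls in WT. Below that coverage, Snhg12 had 5 such calls among 25 in DMSO and 7 among 31 in STM2457 at 132309954 of chromosome 4.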

How the results depend on the processing

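Of 121 alternative values, 92 stayed within 1.5 times the count or within the counting interval, 29 moved and 0 reversed. With coverage above 50 reads there were 9 sites in the METTL3 inhibition dataset and 3 in the Mettl5 dataset. At a level of 10% or more there were 51 and 38 sites, 19 of the 51 lower in STM2457, pooled at 28.4% in DMSO and 10.4% in STM2457. At 50% or more there were 9 and 2 sites, pooled at 83.3% and 22.4%. With DRACH positions only, the pooled level was 72.1% over the sites in DMSO, 7.76% over all positions in DMSO and 3.99% in WT, and 0 genes were lower in Fisher's exact test, since only Gm26917 holds 20 such positions. With failed calls in the denominator there were 13 and 4 sites, and those of 2410006H16Rik, 2900060B14Rik and Gm6787 were lost. The sites of the METTL3 inhibition dataset then stood at 13.6% in STM2457, and all positions at 1.31% in DMSO and 1.35% in WT. Without positions on exons of another gene type the DMSO level was 1.6%, and without the gene with the most valid calls the levels were 1.51% in DMSO and 1.36% in WT. With 1 clone left out, 0 to 1 sites were higher than in WT (2900060B14Rik, in clone 2 alone). An alternative chosen after seeing the data kept only genes that RefSeq calls lncRNA. It left 6 sites, 4 of them lower, pooled at 44.7% in DMSO, 2 sites in the Mettl5 dataset, 5 genes lower, and levels of 1.27% in DMSO and 1.26% in WT. No paired analysis was possible because each condition has 1 library, other than the 2 clones, which share 1 WT library. For 2900060B14Rik in clone 2, the stratified test and thinning gave a call that the summed calls did not.

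Depth limits these results: the sites of 2310009A05Rik, Snhg5 and 2410003L11Rik rest on 28 to 62 reads in a library. Both conditions of the METTL3 inhibition dataset have 1 library each, and lncRNAs with fewer than 25 reads at a position are not covered here.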
